A study of Mus musculus with 32 samples.

Results

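The AP-1 genes described here are Fos, Fosb, Fosl1, Fosl2, Jun, Junb, Jund and Atf3, 8 genes in all. A region of accessible chromatin was given to one of them when its midpoint lay inside the gene's span in build mm10, or within 50 kb of it with no other named protein-coding gene nearer. Of 99037 regions measured in the developmental libraries, 72 belonged to these genes. In mm10 the spans are chr12:85473890-85477274 for Fos, chr7:19302696-19310118 for Fosb, chr4:95049036-95052222 for Jun and chr1:191170296-191183333 for Atf3. Fos had 21 regions, Jun 13, Fosl2 12, Fosb 9, Atf3 9, Junb 4, Fosl1 2 and Jund 2. Of 147852 regions measured in the cultured libraries, 78 belonged to them. When every annotated gene competed for regions, predicted and noncoding genes included, 41 and 39 regions were left, so the remaining regions lie nearer to a predicted or noncoding transcript. Nearness does not show which gene a region acts on.

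The libraries are ATAC-seq, in which the Tn5 transposase cuts open chromatin and the counts per region measure accessibility. All came from LSK cells of C57BL/6 mice, a fraction of blood progenitors that lack lineage markers and carry Sca-1 and Kit. The developmental libraries form 9 groups: E12.5 PL (a label that is not spelled out), fetal liver (FL) at E12.5 and E16.5, and bone marrow (BM) from perinatal mice and from mice of 1, 3, 4, 6 and 8 weeks. Each group has 3 libraries except 3w BM, which has 2. The 6 cultured libraries come from E12.5 liver cells after 2 h of culture. Of these, 3 had the basic medium alone (SHI) and 3 had medium in which hepatocytes of E16.5 had grown (co-SHI). The labels name no genetic change in any group. The library 8w BM 3 carries a stage label of E12.5 under a title of 8w BM and was used by its title.

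AP-1 is a family of paired transcription factors. Jun proteins (Jun, Junb, Jund) pair with each other or with Fos proteins (Fos, Fosb, Fosl1, Fosl2), and Atf3, a stress-induced factor of the related ATF family, can pair with Jun proteins. Fos, Fosb, Jun, Junb and Atf3 are immediate early genes, whose transcription starts soon after MAP kinases carry a signal to the nucleus and needs no new protein. In blood, AP-1 factors are known for roles in myeloid differentiation and in the restraint of progenitor growth.

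The sequences just upstream of Fos, Jun and Atf3 are shown because the regions at these starts separated groups in the results that follow. Each is the 250 bases before the annotated start, read 5′ to 3′ on the gene's strand, from RefSeq (GRCm38.p6). Fos lies on chr12:85473640-85473889 (plus strand), Jun on chr4:95052223-95052472 (minus strand) and Atf3 on chr1:191183334-191183583 (minus strand). Capitals mark, for Fos, the 5 letters TGACG, found at -129 and -66, where -1 is the base before the start. For Jun they mark the 8 letters TGACATCA at -45, and for Atf3 the 8 letters TTACGTCA at -10.
Fos: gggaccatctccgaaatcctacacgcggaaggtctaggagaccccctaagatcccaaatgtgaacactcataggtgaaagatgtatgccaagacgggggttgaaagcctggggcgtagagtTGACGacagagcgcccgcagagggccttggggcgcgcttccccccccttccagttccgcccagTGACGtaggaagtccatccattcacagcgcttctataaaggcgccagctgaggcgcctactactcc
Jun: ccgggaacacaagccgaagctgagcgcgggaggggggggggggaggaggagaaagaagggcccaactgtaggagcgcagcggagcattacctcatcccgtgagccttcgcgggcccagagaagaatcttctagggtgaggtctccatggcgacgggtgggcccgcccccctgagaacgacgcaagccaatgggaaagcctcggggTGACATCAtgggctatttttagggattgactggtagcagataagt
Atf3: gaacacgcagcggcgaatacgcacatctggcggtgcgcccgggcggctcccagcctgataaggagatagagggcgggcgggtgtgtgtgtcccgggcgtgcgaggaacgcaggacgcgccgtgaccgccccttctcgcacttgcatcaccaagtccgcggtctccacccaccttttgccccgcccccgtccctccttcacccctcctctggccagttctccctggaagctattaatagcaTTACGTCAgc

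A promoter window of 250 bases before to 50 after the start was found for 7 of the 8 genes, all but Fosl1, and motifs were searched on both strands. None of the 7 windows held the AP-1 site TGANTCA, which 7.81% of all 32851 promoter windows held. None held the full cyclic AMP response element TGACGTCA (1.79% of all windows) or the core of the serum response element (0.0639%), which in Fos is known to lie farther upstream than the window reaches. The 3 motifs in capitals were chosen after the sequences were seen. TGACG, a shorter form of the cyclic AMP response element, occurred in 4 of the 7 windows (Fos, Fosb, Junb and Atf3) and in 20.8% of all windows. TGACATCA occurred in 3.62% of all windows and TTACGTCA, which contains TGACG on the opposite strand, in 0.499%. A match describes letters and shows no binding.

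In the developmental libraries, total counts over all regions ranged from 2845113 to 10167340, and in the cultured libraries from 7512258 to 20092146. Levels below are CPM, counts relative to library size scaled by the trimmed mean of M values (TMM). For a gene named alone the counts of its regions were summed and scaled with the other genes, and for a region they were scaled with the other regions. The scales differ, so gene levels are not the sums of the region levels printed, and gene and region values are not set against each other here. The 6 LSK and blood marker genes summed to 532.8 to 604.9 CPM in E12.5 PL and to 862.7 to 1051 CPM in every other library. Endothelial markers summed to 485.7 to 789.2 CPM in E12.5 PL and to 390.1 to 421.7 CPM in E12.5 FL, and trophoblast markers to 258.3 to 396 CPM and 184.6 to 215.8 CPM. The labels do not tie the libraries of a group to different animals, and the spread that the p-values rest on may therefore be technical. In bulk libraries, more cells with an open region and a more open region per cell cannot be told apart.

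Of the 8 genes, Atf3 differed most between the E12.5 groups. Its summed level was 300, 313.3 and 314.9 CPM in the 3 E12.5 PL libraries and 118, 129.5 and 119.3 CPM in the 3 E12.5 FL libraries, with no overlap. The log2 fold change of E12.5 FL over E12.5 PL was -1.34 (SE 0.116, adjusted p = 3.7e-12, edgeR quasi-likelihood test with Benjamini-Hochberg adjustment, used for all adjusted p-values here). Fosl2, a Fos protein that is not among the fast-induced ones, fell from 191.8, 222.5 and 196 CPM in E12.5 PL to 123.1, 114.5 and 132.2 CPM in E12.5 FL (log2 fold change -0.72, SE 0.111, adjusted p = 1.1e-06). Junb held 197.2, 179.8 and 210.8 CPM in E12.5 PL and 136.8, 101.4 and 153.7 CPM in E12.5 FL (-0.58, adjusted p = 0.00013). In all, 6 of the 8 genes were lower in E12.5 FL, against 22.7% of 16861 genes tested. The others were Fos (-0.55, adjusted p = 0.006), Fosb (-0.53, adjusted p = 0.0061) and Jund (-0.38, adjusted p = 0.022). Jun (-0.35, adjusted p = 0.063) and Fosl1 (-0.50, adjusted p = 0.06) did not pass. The median log2 fold change was -0.54 over the 8 genes and 0.01 over all genes. With gene counts put on the scale of the regions, an alternative added after seeing the data, the median over all genes was -0.29, 43.8% of genes were lower and 16.2% higher (22.7% and 26.8% on the gene scale), and all 8 genes passed, with Atf3 at -1.64 and Jun at -0.64. The Jund call was lost when only these 2 groups were fitted (adjusted p = 0.07), and without E12.5 PL 1 (0.071), E12.5 PL 3 (0.096) or E12.5 FL 2 (0.18). All marker sums but the hepatocyte one moved with this comparison, without overlap. Endothelial, trophoblast and stromal sums were higher in E12.5 PL, and LSK and blood, macrophage, erythroid and neutrophil sums were lower. Of the 6 LSK and blood genes, 4 were higher and 1 lower in E12.5 FL. The share of counts at gene ends moved too (43.09% to 46.31% in E12.5 PL, 35.93% to 38.14% in E12.5 FL). The part of the marker sums and of this share in the result was not tested.

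Among the 72 regions, 38 were lower in E12.5 FL (26.4% of 99005 regions tested) and 8 were higher (23.1%). The region at the start of Atf3 (chr1:191182256-191183841) lies over the promoter printed above. It held 163.3, 175.3 and 142.3 CPM in E12.5 PL and 25.36, 22.71 and 25.52 CPM in E12.5 FL (log2 fold change -2.71, SE 0.196, adjusted p = 1.1e-15). The starts of Fos (chr12:85473583-85474170, -1.22, adjusted p = 1.3e-07) and Fosl2 (chr5:32135416-32136062, -1.32, adjusted p = 1.7e-08) were also lower. Other regions that fell lay farther off: 16156 bp upstream of Fosb (chr7:19325707-19326841, -1.71, adjusted p = 1.1e-08) and 30323 and 42655 bp upstream of Jun (chr4:95082245-95082846, -1.88, adjusted p = 2.5e-05; chr4:95094603-95095151, -2.59, adjusted p = 2e-05). The 8 higher regions included one 2181 bp upstream of Jund, a Jun gene that is steadily expressed in many cells (chr8:70695298-70695819, 1.18, adjusted p = 0.00024).

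**Figure D1:**
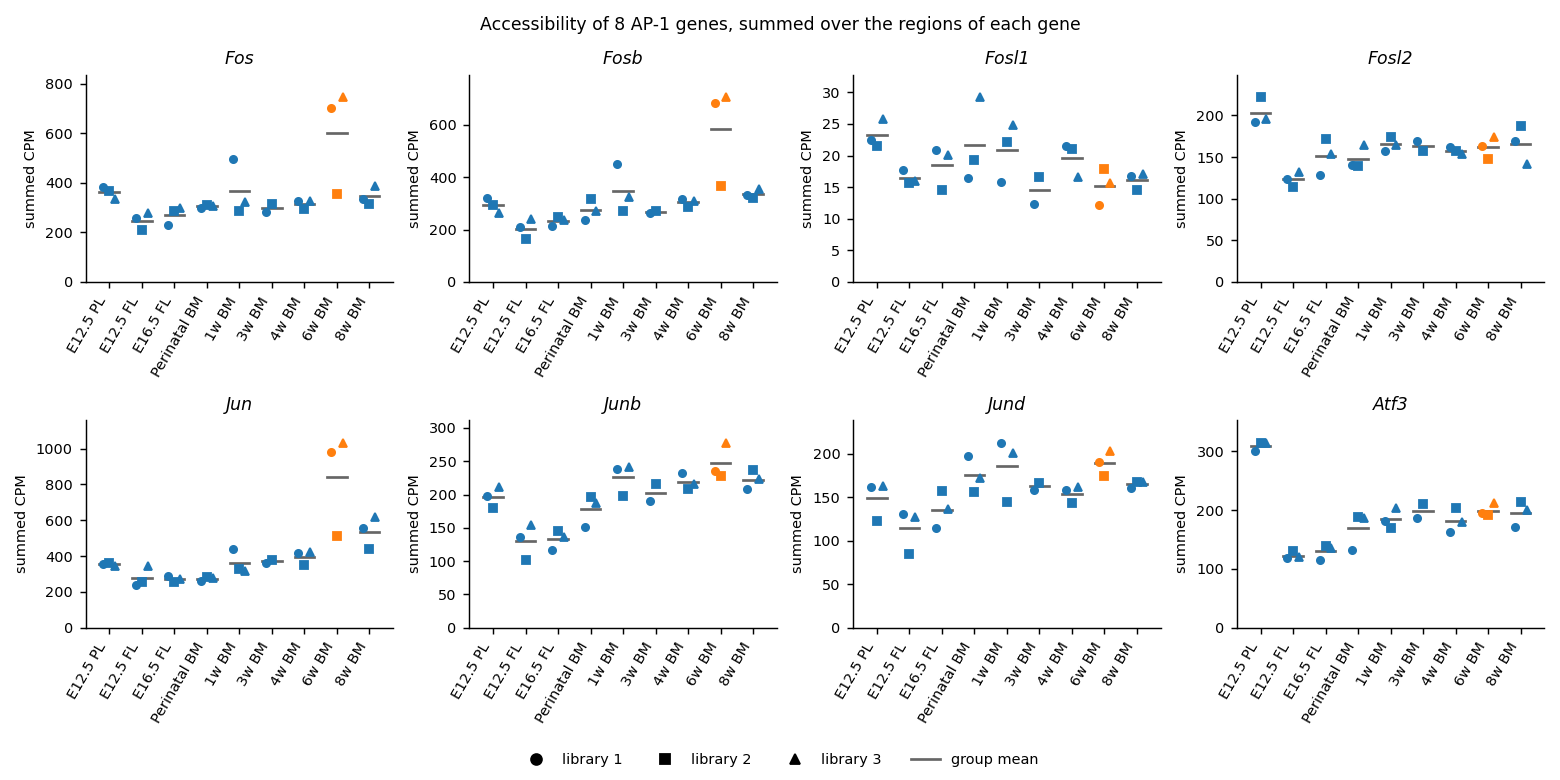
Summed CPM of each AP-1 gene (vertical axis, from 0) in each of 26 libraries by group (horizontal axis), with grey bars for group means and orange for 6w BM. Atf3 is highest in E12.5 PL, and the 6w BM libraries 1 and 3 stand above all others for Fos, Fosb and Jun.

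From fetal liver to adult marrow, accessibility of most AP-1 genes rose. Jun, the founding member of its family, was at 236.8, 257.1 and 343.6 CPM in E12.5 FL and at 554.4, 438 and 617.9 CPM in 8w BM, with no overlap (log2 fold change 0.94, SE 0.156, adjusted p = 1.9e-05). Junb rose from 136.8, 101.4 and 153.7 CPM to 207.9, 236.7 and 222.8 CPM (0.77). Fosb rose from 208.8, 162.9 and 238.5 CPM to 333.5, 319.9 and 354.6 CPM (0.72), and Atf3 from 118, 129.5 and 119.3 CPM to 171.1, 214.4 and 200.2 CPM (0.68). Jund (0.53), Fos (0.48) and Fosl2 (0.43) rose less. In all, 7 of the 8 genes were higher in 8w BM than in E12.5 FL, against 15.1% of all genes, and Fosl1 did not pass (-0.03). On the scale of the regions the same number passed, but 26.9% of all genes were higher and 8.97% lower (15.1% and 14.6% on the gene scale), with a median of 0.14. The Fos call was lost with DESeq2 (adjusted p = 0.072), with totals in place of TMM (0.054), and without E12.5 FL 2 (0.11) or 8w BM 3 (0.11). Among the regions, 24 were higher (10.7% of all regions) and 2 were lower (5.7%). Age and organ change together in this comparison and cannot be told apart. The share of counts at gene ends was 35.93% to 38.14% in E12.5 FL and 40.14% to 41.89% in 8w BM. The part of that share in the rise was not tested.

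A straight line over the 8 liver and marrow groups gave the fitted change from the first group to the last. The groups were taken in order of age and spaced equally, whatever the time between them. The first groups are liver and the later ones marrow, so age and organ cannot be told apart along this line. The share of counts at gene ends, at most 38.14% in liver and at least 39.04% in marrow, was not tested as a part of the line. The same 7 genes rose along this line (24.8% of all genes rose). The change was 1.37 for Jun (SE 0.12, adjusted p = 7e-12), 0.98 for Fosb, 0.88 for Junb, 0.74 for Fos, 0.68 for Atf3, 0.45 for Jund and 0.31 for Fosl2, on the log2 scale. Fosl1 was at -0.21 (adjusted p = 0.31), and at 0.00 on the scale of the regions, where 7 genes passed, 41% of all genes rose and 14.8% fell (24.8% and 25.4% on the gene scale), with a median of 0.19. Among regions 36 rose (18.6% of all) and 4 fell (15.6%). Without the libraries 6w BM 1 and 6w BM 3, a setting added after seeing the data, the change was 1.07 for Jun, 0.70 for Fosb and 0.43 for Fos, and all 7 genes still passed. A test for any difference among the 8 groups called 7 of the 8 genes (42.2% of all genes) and 38 of the 72 regions (26.1% of all).

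**Figure D2:**
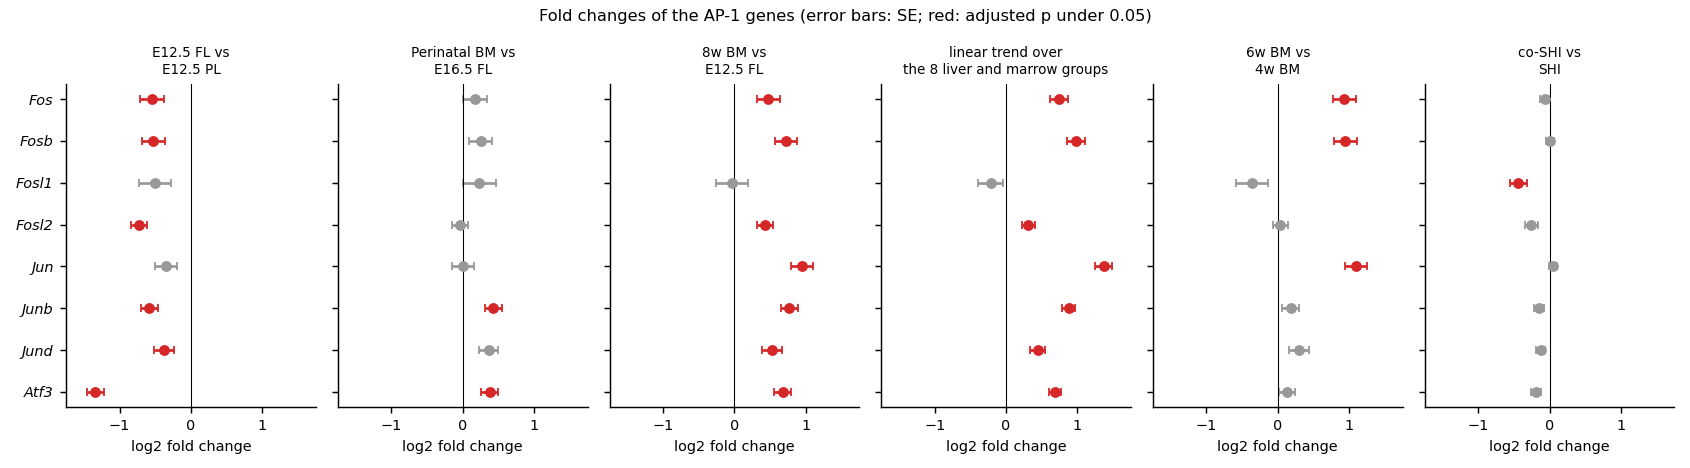
Log2 fold changes of the 8 AP-1 genes (horizontal axis) in 6 comparisons, with SE bars and red points for adjusted p under 0.05. All called genes lie below 0 between the E12.5 groups (FL over PL), and 7 of 8 lie above 0 for 8w BM against E12.5 FL.

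The steps between ages were then tested one by one. Between E12.5 FL and E16.5 FL none of the 8 genes and none of the 72 regions passed, but neither did any of 16861 genes (0.0%, with 1305 at an unadjusted p under 0.05), and 0.00101% of regions passed. From E16.5 FL to Perinatal BM, 2 of 8 genes rose, against 9.34% of all genes. Junb went from 116.5, 145.2 and 136.7 CPM to 151.4, 196.7 and 187.1 CPM (log2 fold change 0.43, adjusted p = 0.016). Atf3 went from 115.2, 139.5 and 136.1 CPM to 131.7, 188.5 and 186.5 CPM (0.38, adjusted p = 0.025), so that 1 perinatal library of Atf3 lay within the range of the liver libraries. Neither call held without E16.5 FL 1 (0.36 for Junb and 0.31 for Atf3, adjusted p 0.11 and 0.14) or Perinatal BM 2 (0.35 and 0.29, adjusted p 0.11 and 0.16), with fold changes somewhat smaller. The Atf3 call was also lost without Perinatal BM 3 (0.33, adjusted p 0.071), and the Junb call over gene-end regions alone (0.18, adjusted p 0.35). On the scale of the regions Jund passed too (0.52, adjusted p = 0.0076), while 21.4% of all genes were higher and 3.42% lower (9.34% and 7.03% on the gene scale), with a median of 0.14. Of the regions, 10 rose (6.66% of all) and 2 fell (1.36%), with 4 called without E16.5 FL 1 and 5 without Perinatal BM 2. The regions that rose included one 1190 bp upstream of Junb (chr8:84979616-84980261, 1.04, adjusted p = 0.00015), one 9815 bp upstream of Fosb (chr7:19319493-19320373, 1.17, adjusted p = 0.00019) and the start of Jun (chr4:95052002-95052728, 0.71, adjusted p = 0.00079). The far (3′) end of Jun went the other way (-1.17, adjusted p = 0.037), a call lost with DESeq2 (0.13), without E16.5 FL 1 (0.28) or 3 (0.1), and without Perinatal BM 1 (0.066), 2 (0.2) or 3 (0.06).

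From Perinatal BM to 8w BM only Jun passed among the 8 genes (259, 280.2 and 275.9 CPM to 554.4, 438 and 617.9 CPM, log2 fold change 0.98, SE 0.156, adjusted p = 5e-05), against 1.89% of all genes. In this comparison 7 regions rose (1.37% of all) and 2 fell (1.5%). With 1 library left out, the number of member regions called ranged from 1 (without Perinatal BM 1) to 10, with 3 without Perinatal BM 3, 4 without 8w BM 1 and 5 without 8w BM 2 or 8w BM 3. Of the 7 that rose, 5 lay at the far ends of Fos (2 regions), Fosb, Jun and Junb, 1 at the start of Jun and 1 upstream of Atf3. With DESeq2 the far ends of Fos (adjusted p 0.11 and 0.13) and Fosb (0.21) did not pass, and without 8w BM 3 they were at 0.16, 0.14 and 0.13. One of the 2 that fell lay 8479 bp upstream of Atf3 (chr1:191191562-191192062) and held between 3 and 8 counts in each perinatal library and none in any 8w BM library. Over the group that is 1.34 CPM in Perinatal BM, against a limit of 0.187 CPM that a count of 0 allows in 8w BM (3 counts over the group, counting error only). It was highest in E12.5 PL, with 14 to 77 counts per library. No library of another group held more than 8, so the region passed the filter (minimum count of 10) through E12.5 PL. A peak overlapped the region in 1 of 26 developmental libraries. Its fall to 8w BM was no longer called without Perinatal BM 1 (adjusted p 0.056) or 2 (0.055). The same held without 8w BM 1 (0.082), 2 (0.1) or 3 (0.057).

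Between neighbouring marrow ages the genes seldom passed. No member passed from Perinatal BM to 1w BM (0.267% of all genes, 0.181% of regions), from 1w BM to 3w BM (0.101% and 0.0889%) or from 3w BM to 4w BM (0.0% and 0.00808%). From 4w BM to 6w BM, Jun (1.09, SE 0.154, adjusted p = 0.00011), Fosb (0.95, adjusted p = 0.0013) and Fos (0.93, adjusted p = 0.0029) passed, 3 of 8 against 0.16% of all genes. From 6w BM to 8w BM, Fosb passed in the other direction (-0.80, adjusted p = 0.046, 0.0178% of all genes), a call that 18 of 26 single-library omissions ended. On the scale of the regions Fos passed as well in that step (-0.83, adjusted p = 0.042). Of the 3 libraries of 6w BM, 1 and 3 stood above 2. Jun was at 981.4 and 1034 CPM in 6w BM 1 and 6w BM 3 and at 512.9 CPM in 6w BM 2, beside 349 to 420.9 CPM in 4w BM. Fos was at 701.4 and 748.4 CPM against 356.8 CPM in 6w BM 2, and Fosb at 684.5 and 707.8 CPM against 366.3 CPM. Without 6w BM 1 the Fos call from 4w BM was lost (adjusted p = 0.055), and without 6w BM 3 those of Fos (0.19) and Fosb (0.09). Without both, the fold changes were 0.38 for Jun, 0.27 for Fosb and 0.18 for Fos, and none passed. That leaves 1 library in 6w BM, which is assumed to vary like the other groups, so the missing calls say little and the smaller fold changes describe that library. Total counts were 3953949, 4990606 and 4133532 in 6w BM 1, 2 and 3. No gene of any cell type marker list was called from 4w BM to 6w BM, where 0.166% of all genes passed in either direction. With so few calls, and with groups rather than single libraries compared, this says little on cell mixture within 6w BM. The part of depth or cell mixture was not tested.

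Differences between groups and spread within them were set apart for each gene over the 23 liver and marrow libraries. The 8 groups differ in organ as well as age. The share between groups is not corrected for their number, so it lies above 0 even where groups do not differ. Differences between groups held 85.1% of the variance of log2 CPM for Junb, 84.8% for Jun, 79.7% for Atf3, 78.6% for Fosb, 68.7% for Fos, 67.4% for Jund, 60.2% for Fosl2 and 42.2% for Fosl1, beside a median of 54.2% over all 16861 genes. Among genes within 0.5 log2 units of the same level the median share was higher: 65.4% for Junb, 71.9% for Jun, 65.2% for Atf3, 68.7% for Fosb, 69.9% for Fos, 64.1% for Jund, 64.3% for Fosl2 and 50.3% for Fosl1. By these values Fos, Fosl2 and Fosl1 lay below the median gene of their level and the other 5 above it. The jackknife SE of the share, from leaving out 1 library at a time, was 21.6 points for Fos and 19.5 for Fosl2. For Fos, Fosl2, Fosl1, Jund and Fosb the SE was larger than the gap to that median, so their side is not settled. Junb lay above it by far more than its SE (4.54 points). Jun (SE 9.57) and Atf3 lay above it by somewhat more than theirs. Leaving out 1 library at a time moved the share of Fos between 59.7% and 85.5%. The SD within groups was 0.293 for Fos, 0.275 for Fosb and 0.275 for Jun, beside 0.106, 0.108 and 0.109 for the median gene of like level. For Fosl2 (0.135 beside 0.128), Atf3 (0.162 beside 0.124) and Junb (0.176 beside 0.123) it lay nearer to that median. The spread of Fos, Fosb and Jun was thus more than 2 times that of the median gene of like level. It rested in good part on 6w BM, where libraries 1 and 3 stood above 2. The SD of CPM there was 213.8 for Fos, 190.8 for Fosb and 287 for Jun. The next largest were 111.7 and 91.64 for Fos and Fosb (1w BM) and 91.26 for Jun (8w BM). The SD within groups without 6w BM is not given here.

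**Figure D3:**
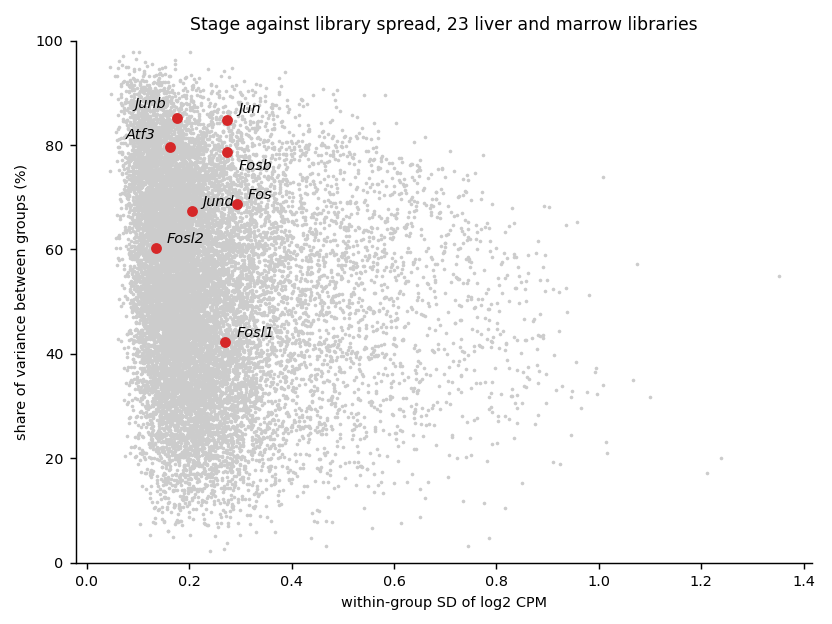
Share of variance between the 8 liver and marrow groups (vertical axis, percent) against the SD of log2 CPM within groups (horizontal axis) for all genes (grey) and the AP-1 genes (red). Jun and Junb reach 85%, while the point of Fosl1 lies below the median gene, by less than its jackknife SE.

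The swings between libraries were larger at one end of Fos, Fosb and Jun than at the other. The division of regions into starts and far ends was made after the values were seen. The region at the far (3′) end of Jun (chr4:95048023-95049628) held 580.2, 134.8 and 614.7 CPM in 6w BM 1, 2 and 3. In 8w BM it held 211.3, 112.3 and 287.8 CPM, in 4w BM 135.3, 66.8 and 131.7 CPM, and in Perinatal BM 28.18, 19.65 and 29.2 CPM. In E12.5 FL it held 44.61, 29.5 and 105 CPM, so that 1 library of a group stood over 3-fold above another already at that stage. At the start of Jun (chr4:95052002-95052728) the same 6w BM libraries held 229.1, 225.1 and 260.1 CPM, the 4w BM libraries 152.1, 165.4 and 159.4 CPM, and the E12.5 FL libraries 76.31, 96.47 and 96.66 CPM. At the start the libraries of each of these groups lay close together, and at the far end they did not.

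Fos and Fosb had the same form. The 2 regions at the far end of Fos (chr12:85477128-85477628 and chr12:85477698-85478330) together held 196.4, 39.58 and 228 CPM in the 6w BM libraries and 57.58, 9.258 and 12.28 CPM in the 1w BM libraries. Its start (chr12:85473583-85474170) held 51.41, 53.48 and 57.2 CPM and 71.6, 47.36 and 56.26 CPM. The far end of Fosb (chr7:19301004-19302533) held 202.5, 62.9 and 251.8 CPM in 6w BM, and its start (chr7:19310063-19310651) 43.76, 36.58 and 45.02 CPM. At the far ends of all 3 genes 6w BM 1 and 6w BM 3 were the highest of all libraries. Such a split was not confined to far ends. A region in the body of Fosb (chr7:19303753-19304253) held 63.8, 20.54 and 63.82 CPM in 6w BM. A region upstream of Fos (chr12:85471966-85472546) ranged from 13.48 to 43.96 CPM there. Library 1w BM 1 was the highest of its group at the far ends and at the starts of all 3 genes.

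**Figure D4:**
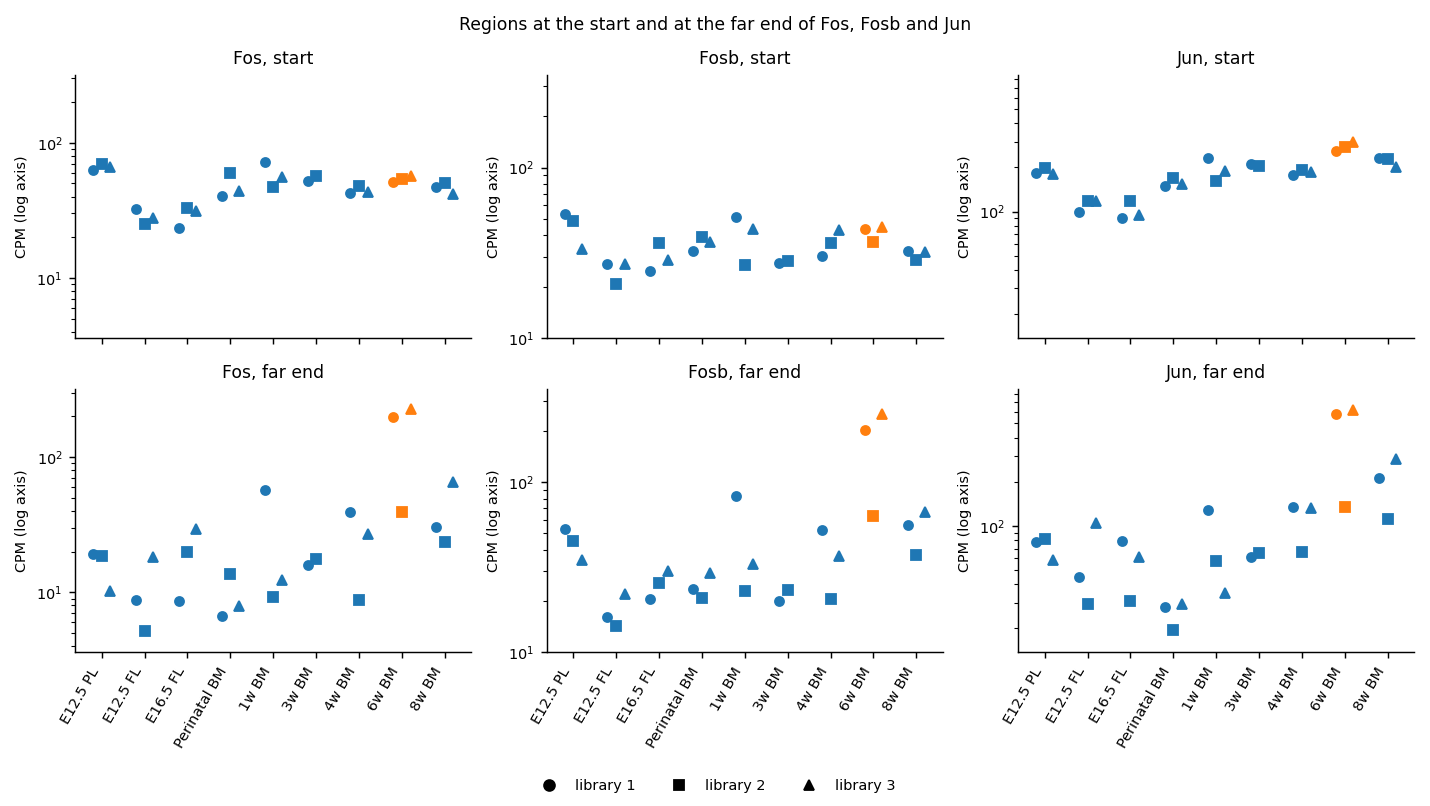
CPM (log axis, the same range for both ends of a gene) at the start (top) and far end (bottom) of Fos, Fosb and Jun in each library, by group, with 6w BM in orange. The start of Jun, here summed over 2 neighbouring regions, lies between 90.39 and 300.3 CPM, and its far end between 19.65 and 614.7 CPM.

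Among the 386 regions at far ends with a mean of at least 10 CPM, the 2 of Fos had the largest SD within groups (1.015 and 0.993 log2 units), that of Jun was the third (0.788) and that of Fosb the seventh (0.624). These ranks are a description: the Fos region from 85477128, with a mean of 13.5 CPM over all 26 libraries, reached the limit of 10 CPM through its mean of 57.7 CPM in 6w BM. The median far end had 0.278 and the median start 0.237. The starts of Fos (0.205), Jun (0.154) and Fosb (0.254) were near or below that median. Differences between groups held 94.4% of the variance at the start of Jun and 76.4% at its far end. The main far-end region of Junb (chr8:84976134-84976938) had a smaller SD of 0.314, still above the median far end. Its second, weaker far-end region (chr8:84977441-84977979) ranged from 8.901 to 26.57 CPM in 1w BM and from 10.17 to 22.35 CPM in Perinatal BM. The 2 far-end regions of Junb together held 116.8, 102.5 and 131.9 CPM in 6w BM. Atf3, Jund, Fosl1 and Fosl2 had no region at the far end. The other genes among the 15 far ends of highest spread were, in order, Klf6 (0.697), Sh2b2 (0.66), Tnfrsf8 (0.645), Ccdc97 (0.614), Mto1 (0.528), Nfe2l3 (0.496), Ctla2a (0.493), Socs3 (0.491), Btg2 (0.479), Il6ra (0.466) and Zfp36 (0.461), named here after their values were seen.

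The far ends of Fos, Fosb and Jun moved together from library to library, and so did, less closely, the starts. Deviations of log2 CPM from the group means, over the 23 liver and marrow libraries, had r = 0.912 between the far ends of Fos and Fosb, 0.807 between Fosb and Jun and 0.736 between Fos and Jun. Without 6w BM (20 libraries) they were 0.883, 0.703 and 0.626. Between the starts they were 0.69 (Fos and Fosb), 0.635 (Fos and Jun) and 0.623 (Fosb and Jun). Between the far end and the start of the same gene r was -0.03 for Jun, 0.419 for Fos, 0.527 for Fosb and 0.691 for Junb. The far end of Junb had r = 0.198 with that of Jun, 0.556 with that of Fos and 0.505 with that of Fosb, and 0.731 and 0.784 with the starts of Fos and Fosb. These libraries share depth and preparation between their regions, so the values are descriptions. The peak lists, called per library, were read at the same places. A peak overlapped the far end of Jun in 11 of 26 developmental libraries, all 3 of 6w BM and all 3 of 8w BM among them, with the authors' fold enrichment at most 4.21 (6w BM 1). A peak overlapped the main start region of Jun (chr4:95052002-95052728) in 26 of 26. Its second start region (chr4:95051491-95051991), which enters the summed start, had a peak in 9. The second far-end region of Fos had a peak in 5 libraries (1w BM 1, 6w BM 1, 6w BM 3, 8w BM 1 and 8w BM 3), and the far end of Fosb in 8. The start of Fos had a peak in 24 libraries, all but 6w BM 1 and 6w BM 3, the libraries with the highest far ends, although its level there (51.41 and 57.2 CPM) was like that of 6w BM 2 (53.48 CPM).

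The 6w BM step was then tested per region. From 4w BM to 6w BM 8 regions were higher (0.138% of all), all of Fos, Fosb or Jun. Of these, 4 were far ends and 4 lay elsewhere. The far end of Fosb had a log2 fold change of 2.24 (SE 0.296, adjusted p = 3.8e-06), the 2 of Fos 2.59 and 2.69 (adjusted p = 0.00036 and 0.00013, the second at 0.13 with DESeq2), and that of Jun 2.00 (adjusted p = 0.00033). The others were a region just past the far end of Fos (chr12:85478586-85479086, 2.27, adjusted p = 0.0011), one upstream of Fos (chr12:85471966-85472546, 1.28, adjusted p = 0.015), one in the body of Fosb (chr7:19303753-19304253, 1.57, adjusted p = 0.0017, 0.11 with DESeq2) and one upstream of Fosb (chr7:19319493-19320373, 0.98, adjusted p = 0.004). The starts were at 0.58 for Jun (adjusted p = 0.054), 0.27 for Fos (adjusted p = 0.78) and 0.19 for Fosb (adjusted p = 0.89). From 6w BM to 8w BM 6 regions of Fos and Fosb were lower (0.0919% of all), from -0.84 to -2.04. Over both steps together 14 region calls were made, 7 without 6w BM 1, 4 without 6w BM 3, 9 without 8w BM 1 or without 8w BM 2, 5 with DESeq2 and 1 without both 6w BM 1 and 6w BM 3, where 6w BM is 1 library. Along the whole age line the far end of Jun still rose without those 2 libraries (2.78 with them, 2.06 without, adjusted p = 8.6e-09), and so did its start (1.37 with and 1.33 without, adjusted p = 2e-12). The start of Fosb did not pass with them (0.34, adjusted p = 0.078) or without them (0.26, adjusted p = 0.28).

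**Figure D5:**
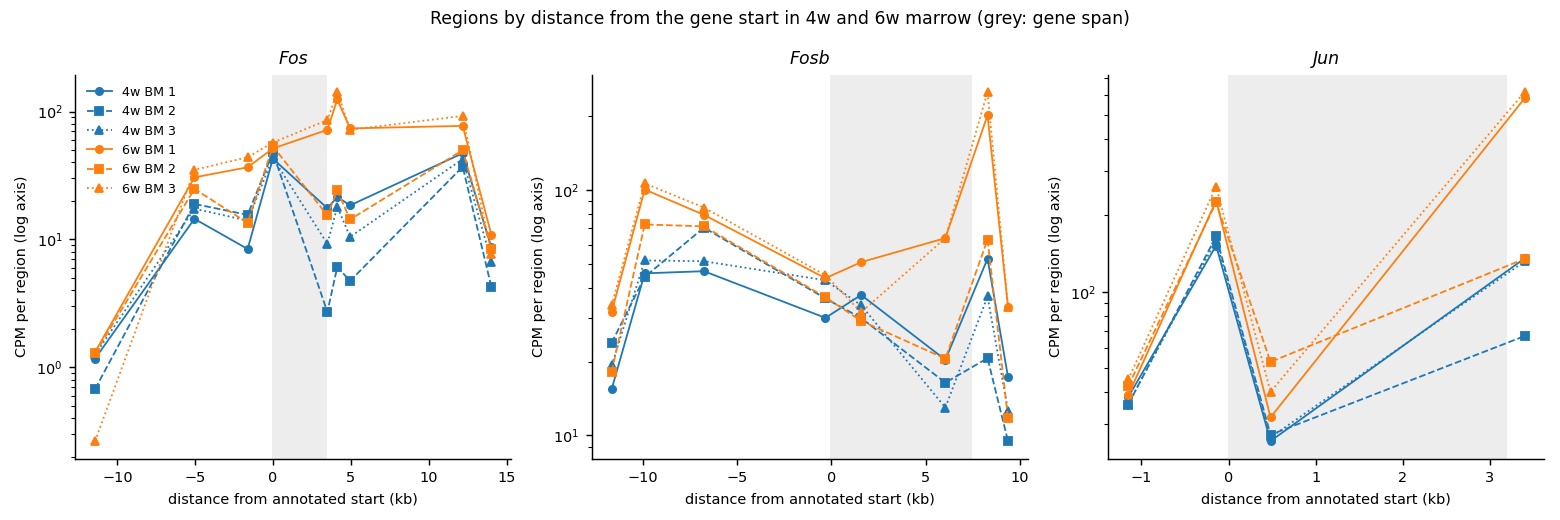
CPM per region (log axis) against the distance of the region's midpoint from the annotated start of Fos, Fosb and Jun, for the 4w BM (blue) and 6w BM (orange) libraries. Lines only link regions of a library. 6w BM 1 and 6w BM 3 depart from 6w BM 2 at and past the far ends, and lie close to it at the starts. They also depart from it in the body of Fosb and at a region upstream of Fos.

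By likeness of the mean log2 CPM of the 8 genes over 26 libraries, the nearest other genes were Btg2 (r = 0.948), Pygo2 (0.903), Ier2 (0.899), Zswim4 (0.895) and Tagln2 (0.885), out of 8423 candidates. By likeness of deviations from group means over 23 libraries they were Ubxn4 (0.897), Zswim4 (0.88), Btg2 (0.86), Rab5if (0.856) and Pik3r1 (0.856). Both are descriptions over libraries that share their depth and preparation. Among the members, deviations of Fos were close to those of Fosb (r = 0.943) and Jun (0.836) and less to those of Junb (0.548) and Atf3 (0.153).

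Other genes of the pathway were read from 4 lists. Over all genes, 49.5% passed in either direction between the E12.5 groups, 29.7% between E12.5 FL and 8w BM and 0.166% between 4w BM and 6w BM. Of 21 immediate early genes outside AP-1, 15 were lower and none higher in E12.5 FL than in E12.5 PL (median -0.58, beside 0.01 over all genes), with Ccn1, a matrix-signalling gene, at -1.70 and the factor Klf4 at -1.26. In 8w BM against E12.5 FL 12 were higher and none lower (median 0.34, beside -0.03), with the nuclear receptors Nr4a1 at 1.01 and Nr4a3 at 0.96 and the factor Egr1 at 0.99. From 4w BM to 6w BM 6 were higher, among them Zfp36, which promotes decay of cytokine mRNAs (0.90), and Rhob (0.62). Of 16 AP-1 partners and small Maf genes, 4 were lower and 1 higher in E12.5 FL, with Maff at -0.97 and Batf higher at 0.54, and 7 were higher in 8w BM than in E12.5 FL, with Creb1 at 0.65 and Jdp2, which represses AP-1 sites, at 0.59. None passed from 4w BM to 6w BM.

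Of 24 genes of the MAP kinase arm upstream of AP-1, 5 were lower and 3 higher in E12.5 FL than in E12.5 PL. Over all genes 49.5% passed there in either direction, and 29.7% between E12.5 FL and 8w BM. Srf, the factor that binds the serum response element of Fos, was at -0.78 and the kinase Mapk14 at 0.85. In 8w BM against E12.5 FL 7 were higher and 2 lower, with the kinase Mapk10 at -2.50, Map2k6 at -0.70 and Elk4, a partner of Srf, at 0.61. Of 15 genes known as AP-1 targets, 5 were higher and 3 lower in E12.5 FL than in E12.5 PL, with Spp1 at 1.97 and Hmox1 at -1.18. Of these, 3 were higher in 8w BM than in E12.5 FL (Il6 at 1.60, Il2 at 0.92 and Lif at 0.56) and none lower, and none passed from 4w BM to 6w BM.

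In culture the question was whether 2 h in hepatocyte-conditioned medium altered these loci. Fosl1, a Fos protein usually low in resting cells, was at 23.19, 24.93 and 25.07 CPM in SHI and at 18.19, 16.41 and 19.56 CPM in co-SHI, with no overlap (log2 fold change -0.44, SE 0.117, adjusted p = 0.034). It was the only member called, 1 of 8 against 2.03% of 17718 genes that were lower. The call was lost over gene-end regions alone (adjusted p = 0.15) and without any 1 library other than co-SHI 3 (adjusted p 0.074 to 0.18), and without co-SHI 3 there were 4 calls. The others ranged from -0.25 for Fosl2 (adjusted p = 0.078) to 0.05 for Jun (adjusted p = 0.65). Jun held 216.6, 210.2 and 219.6 CPM in SHI and 224.7, 211.5 and 232.9 CPM in co-SHI. Of 78 regions, 1 was lower (0.332% of all), 11539 bp upstream of Fosb (chr7:19321407-19321907). It held 4.84, 7.175 and 7.748 CPM in SHI and 1.622, 3.563 and 3.759 CPM in co-SHI (-1.15, adjusted p = 0.033), and the call was lost without SHI 2 (0.14), SHI 3 (0.15), co-SHI 1 (0.3) or co-SHI 2 (0.058). No region of the cultured table lay over the far end of Jun or Fos, and no peak overlapped those places in any of the 6 cultured libraries. Fosb differed: a peak overlapped its far end in 4 of the 6 (SHI 1, SHI 2, SHI 3 and co-SHI 3). A cultured region partly over that end (chr7:19300515-19301582) held a mean of 12.33 CPM in SHI and 12.01 CPM in co-SHI. The co-SHI libraries (14280440 to 20092146 counts) were deeper than the SHI libraries (7512258 to 11655458 counts), and the part of depth in the Fosl1 difference was not tested.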

How the data were processed

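LSK cells were profiled by ATAC-seq in 26 developmental and 6 cultured libraries. The authors deposited integer read counts per region for each table, and peak lists with a fold enrichment (ratio) and a −log10 q-value per library. Per the submitters' processing notes, the tools were DiffBind, HOMER, deepTools, MACS2 and Trim Galore, and the build was mm10. The aligner, the peak settings, any shift for Tn5 and the handling of duplicates are not given in the sources used here.

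Regions were given to genes by midpoint (RefSeq, GRCm38.p6), within 50 kb, and counts were summed per gene. Whole tables were fitted with edgeR 4.0.16 (quasi-likelihood, TMM, filterByExpr with a minimum count of 10, Benjamini-Hochberg, 0.05). All 8 genes and all their regions passed the filter. Scripts were tested on simulated data. Start and far-end regions have a midpoint within 1 kb of that gene end. Spread used log2 CPM with a prior count of 2. The members, lists and tests were chosen with earlier results of these data known. Named regions were each gene's highest region and, per comparison, up to 2 per gene of smallest p with adjusted p under 0.05, a log2 change of at least 1 and no overlap; starts, far ends and other named regions were chosen after values were seen. Alternatives were DESeq2 1.42.0, total scaling, other filters, gene-end regions, the region scale for genes, a replicate block and leaving out libraries.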

Additional observations from a re-analysis of the deposited data

How the results depend on the processing

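No called result changed direction under the alternatives run. Of single-gene and single-region values under settings other than leaving out 1 library, 513 stayed on the same side of the threshold and 23 no longer passed, and with 1 library left out these numbers were 1601 and 75. For a developmental call each of the 26 libraries was left out, also those of groups not compared. Such omissions act mostly through scaling and the shared spread. The 1601 and 75 therefore do not show how often a call outlasts the loss of a compared library. Over gene-end regions alone the member genes called numbered 1 for Perinatal BM against E16.5 FL, 2 for 8w BM against Perinatal BM and 0 for co-SHI against SHI, and the share of variance between groups was 18.84% for Fosl1 and 79.01% for Junb. Without 6w BM 1 and 6w BM 3, added after seeing the data, 0 genes and 1 region were called over the marrow steps, with 1 library left in 6w BM and its spread taken from the other groups. DESeq2 called 5 regions there. Gene counts on the scale of the regions, also added after seeing the data, gave 8 genes between the E12.5 groups, 3 for Perinatal BM against E16.5 FL and 7 along the age line. With the replicate block 0 genes were called for co-SHI against SHI (Fosl1 adjusted p = 0.057). Replicate numbers were not taken as pairs in the main fits. Of 100 same-numbered developmental pairs, 23 had r over 0.1 (median 0.0191, highest 0.326), beside a median of -0.0105 for other numbers. Among cultured pairs 0 of 3 passed 0.1. In all, 16 of 26 developmental and 3 of 6 cultured libraries correlated best with their own number. Whether libraries of one number share a preparation was not tested.

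Leaving out 1 library gave 0 to 3 genes for Perinatal BM against E16.5 FL, 1 to 6 over the marrow steps and 0 to 4 for co-SHI against SHI. It gave 4 to 14 regions for Perinatal BM against E16.5 FL, 1 to 10 for 8w BM against Perinatal BM, 4 to 20 over the marrow steps and 0 to 5 for co-SHI against SHI. The cause was not tested. Counts limit regions of low level, such as the one upstream of Atf3 with 0 to 77 counts per library.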
